A study of Homo sapiens with 12 samples.

Results

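Transcript levels of 10 genes that encode annexins, S100 proteins and parts of caveolae were followed in 12 RNA-seq libraries of neuroblastoma cells. The genes were taken by name: the annexins ANXA1, ANXA2 and ANXA5, the S100 genes S100A6, S100A10 and S100A11, and the caveola genes CAV1, CAV2, CAVIN1 and EHD2. All 10 were among the 58735 genes of the deposited table and all 10 were among the 15856 genes with enough signal to be tested. Neuroblastoma is a childhood tumour of the sympathetic nervous system, and the study compared cells carrying a hairpin RNA against TSPYL5, a gene of the nucleosome assembly protein family, with cells carrying a control hairpin. There were 3 libraries in each of 4 groups: TSPYL5 knockdown and control libraries labelled SK-N-SH, and TSPYL5 knockdown and control libraries of a second line. SK-N-SH is an adherent line from a bone marrow metastasis. The other line is SK_N_BE2 in the titles and SH-SY5Y in the remaining labels, and is named only as the second line below. Titles mark the controls shNC, read here as a control hairpin, while their genotype label is wild type, and the treatment label is none in all groups. The labels do not say whether the 3 libraries of a group came from separate cultures, so p-values measure the spread between these libraries, which may be technical.

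Annexins are proteins that bind acidic membrane lipids when calcium rises, and they act in membrane repair, exocytosis and the organisation of the cell cortex. S100 proteins are small calcium-binding dimers, several of which dock onto the tail of a particular annexin: S100A10 pairs with ANXA2, and S100A11 with ANXA1. Caveolae are flask-shaped pits of the plasma membrane, built from caveolins and coated by cavins, with EHD2 at their neck. Neuroblastoma cells occur in a noradrenergic, neuron-like state and in a mesenchymal state, and these 3 gene groups are best known from adherent mesenchymal, epithelial and endothelial cells.

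The targeted gene went against one label. TSPYL5 averaged 17.7 ± 0.629 FPKM in libraries labelled SK-N-SH knockdown and 12.9 ± 0.649 FPKM in SK-N-SH control libraries, so it was higher under the knockdown label (SD, n = 3 each; FPKM is a read level scaled to gene length and library size). In the second line it averaged 12.8 ± 0.474 FPKM in knockdown libraries and 24.7 ± 0.918 FPKM in control libraries. MYCN, the oncogene that is amplified in some neuroblastoma lines, averaged 1028 FPKM in libraries labelled SK-N-SH knockdown and 0.0408 FPKM in SK-N-SH controls, against 0 FPKM in second-line knockdown and 1040 FPKM in second-line control libraries. By MYCN the SK-N-SH knockdown label stood with the second-line controls, and second-line knockdown with the SK-N-SH controls. TSPYL5 paired only the latter groups, which were 1.01-fold apart with overlapping libraries. In libraries labelled SK-N-SH knockdown TSPYL5 was 1.40-fold lower than in second-line controls, without overlap of libraries. Whether labels were exchanged was not tested. Labels are kept as given, and every direction below, in either line, and the difference between the lines carry this limit.

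The members moved as one block, and in opposite directions under the same knockdown label. All 10 were lower in libraries labelled SK-N-SH knockdown than in SK-N-SH control libraries, and all 10 were higher in second-line knockdown than in second-line control libraries. The smallest difference was 5.18-fold (ANXA2 in SK-N-SH). Apart from CAV2, with at most 3 reads in each low group, the largest ratio was 412-fold (CAV1 in SK-N-SH), from 55 reads in the low group. Each result below comes from one limma model on log2(FPKM + 1) over all 12 libraries, two-sided, with Benjamini-Hochberg adjustment over the 15856 genes tested and a threshold of 0.05. Most tested genes differed in these comparisons: in SK-N-SH 79.8% of tested genes passed the threshold, 39.0% as lower and 40.7% as higher, and in the second line 80.0% passed it, 39.9% as higher and 40.2% as lower. The members' adjusted p-values from limma ran from 2.16e-13 to 2.71e-10 in SK-N-SH and from 5.36e-13 to 8.98e-10 in the second line. Their median log2 fold was -3.88 in SK-N-SH, where the median of all tested genes was 0.02, and 3.74 in the second line, where the median of all tested genes was -0.02. Libraries of the compared groups did not overlap for any member, in a background where 39.9% of genes were lower without overlap in SK-N-SH and 40.5% were higher without overlap in the second line. In RNA from bulk cultures, fewer cells of a type and less RNA per cell cannot be told apart.

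**Figure D1:**
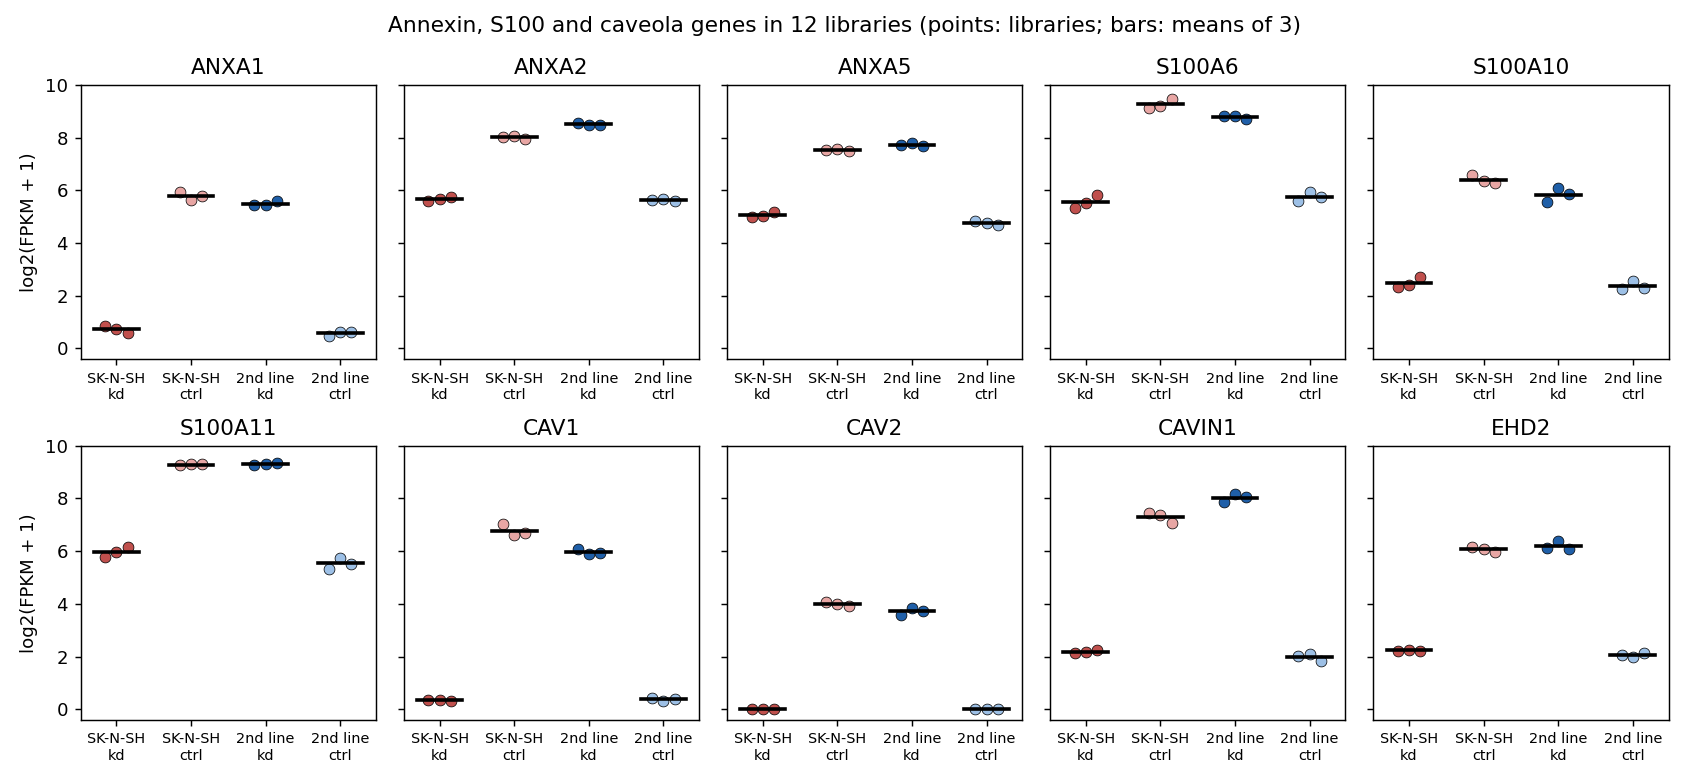
Level of each member in the 12 libraries, as log2(FPKM + 1); points are libraries, horizontal bars the means of 3, and kd and ctrl mark knockdown and control. For all 10 genes the SK-N-SH control and second-line knockdown libraries sit high, and those labelled SK-N-SH knockdown or second-line control sit low, with ANXA1, CAV1 and CAV2 near 0 there.

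Among the 3 annexin members, ANXA1 had the largest folds. ANXA1, a glucocorticoid-induced protein that restrains inflammation and is a ligand of formyl peptide receptors, lies at chr9:73151757-73170393 on the plus strand (GRCh38). It had 0.822, 0.681 and 0.517 FPKM in libraries labelled SK-N-SH knockdown, against 59.6, 49.0 and 53.7 FPKM in SK-N-SH controls. In the second line it had 42.9, 42.6 and 46.9 FPKM in knockdown libraries, against 0.385, 0.552 and 0.556 FPKM in controls. The low libraries were all under 1 FPKM and no high library was under 42.6 FPKM. The mean was 80.4-fold lower in SK-N-SH (log2 fold -5.04, SE 0.09, limma adjusted p 4.59e-13) and 88.7-fold higher in the second line (log2 fold 4.91, SE 0.09, limma adjusted p 5.36e-13). The receptors of ANXA1 among the partner genes were scarcely read: FPR1 and FPR2 had 0 reads in all 12 libraries. FPR3 had 1 read in SK-N-SH controls, 1 read in second-line knockdown libraries and 0 reads in the other groups.

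ANXA2, which forms a tetramer with S100A10 at the inner face of the plasma membrane and at the cell surface binds plasminogen and its activator, lies at chr15:60347134-60402883 on the minus strand. It had 47.6, 49.9 and 52.3 FPKM in libraries labelled SK-N-SH knockdown, against 262, 269 and 245 FPKM in SK-N-SH controls. Second-line knockdown libraries had 378, 352 and 356 FPKM, against 48.5, 49.96 and 47.2 FPKM in second-line controls. Its level thus never came near 0, and in the low groups it still ranked 703 (SK-N-SH knockdown label) and 736 (second-line control) of the 15856 tested genes by mean FPKM. The mean was 5.18-fold lower in SK-N-SH and 7.45-fold higher in the second line, the smallest changes of any member.

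The ANXA2 level is uncertain where reads can also come from ANXA2P2, a processed copy on chromosome 9. Over the coding sequence, transcript ANXA2-204 and the copy aligned without gaps over 1020 bases, 16 of which differed (98.4% identity), and the longest stretch with no difference was 221 bases. A stretch of 60 bases that holds 5 of the differences is given from coding base 169 to 228, 5′ to 3′, from GENCODE transcripts, to show how few bases tell the gene and its copy apart; capitals mark the bases that differ.
ANXA2: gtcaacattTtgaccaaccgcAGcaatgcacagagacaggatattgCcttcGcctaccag
ANXA2P2: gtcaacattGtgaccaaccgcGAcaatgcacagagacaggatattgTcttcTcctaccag
ANXA2P2 carried 0.423 ± 0.0297 of the ANXA2 level per length in libraries labelled SK-N-SH knockdown and 0.444 ± 0.00573 in SK-N-SH controls, and 0.449 ± 0.00746 in second-line knockdown and 0.397 ± 0.0139 in second-line control libraries. Over all 12 libraries the ratio lay between 0.387 and 0.454. In reads rather than per length, the copy had 0.0489 of the ANXA2 reads in libraries labelled SK-N-SH knockdown and 0.0514 in SK-N-SH controls, and 0.0519 in second-line knockdown and 0.0459 in second-line control libraries. The ratio in reads is smaller because the ANXA2 gene model is 8824 bases long while its principal transcripts are 1435 to 1676 bases, which also lowers the FPKM of ANXA2 relative to genes with compact models.

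ANXA5 binds phosphatidylserine, forms lattices on damaged membranes and is the common probe for apoptotic cells; it lies at chr4:121667955-121697113 on the minus strand. Libraries labelled SK-N-SH knockdown had 30.9, 31.8 and 34.8 FPKM, against 184, 188 and 178 FPKM in SK-N-SH controls. In the second line it stood at 212, 219 and 203 FPKM in knockdown libraries, against 27.4, 26.4 and 24.7 FPKM in controls. No low library was above 34.8 FPKM and no high one under 178 FPKM. ANXA5 was 5.63-fold lower in SK-N-SH (limma adjusted p 5.32e-12) and 8.08-fold higher in the second line (limma adjusted p 1.03e-12).

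Per length, S100A11 had the highest mean of all members in 3 of the 4 groups, and S100A6 in the second-line controls. S100A11, the partner of ANXA1, lies at chr1:152032506-152047907 on the minus strand. It had 53.9, 61.3 and 71.2 FPKM in libraries labelled SK-N-SH knockdown, against 612, 632 and 625 FPKM in SK-N-SH controls. Second-line knockdown libraries had 609.5, 628 and 640.5 FPKM, against 38.6, 53.1 and 45.1 FPKM in second-line controls. The high and low libraries stood far apart, and in the high groups it ranked 40 (SK-N-SH control) and 39 (second-line knockdown) of the tested genes. The mean was 10.03-fold lower in SK-N-SH (limma adjusted p 1.46e-10) and 13.7-fold higher in the second line (limma adjusted p 4.43e-11).

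S100A6, or calcyclin, a regulator of the cytoskeleton and of ubiquitin ligase partners, lies at chr1:153534599-153536244 on the minus strand. It had 39.3, 44.6 and 54.9 FPKM in libraries labelled SK-N-SH knockdown, against 557, 591 and 698 FPKM in SK-N-SH controls. In the second line the values were 448, 450.2 and 413 FPKM in knockdown libraries, against 47.0, 60.3 and 52.7 FPKM in controls. The 2 sets of libraries did not overlap in either line. S100A6 was 13.3-fold lower in SK-N-SH and 8.20-fold higher in the second line. An antisense gene, BX470102.1, overlaps it, but reached at most 2.72 FPKM in any library.

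S100A10, the S100 protein that has lost calcium dependence and holds ANXA2 in its tetramer, lies at chr1:151982915-151994390 on the minus strand and was the least abundant S100 member in every group. Libraries labelled SK-N-SH knockdown had 4.08, 4.28 and 5.49 FPKM, against 94.7, 80.1 and 76.8 FPKM in SK-N-SH controls. Second-line knockdown libraries had 46.6, 66.6 and 56.9 FPKM, against 3.75, 4.97 and 3.87 FPKM in second-line controls. The highest low library, at 5.49 FPKM, was far below the lowest high one, at 46.6 FPKM. It was 18.1-fold lower in SK-N-SH (limma adjusted p 2.71e-10) and 13.5-fold higher in the second line (limma adjusted p 7.37e-10). On the linear scale its change was larger than that of its partner ANXA2 in both comparisons, a difference not tested as such.

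CAV1 and CAV2 had the largest ratios of mean FPKM of the 10 members in both knockdown comparisons; on the log2(FPKM + 1) scale CAVIN1 had the largest fold in the second line. CAV1, the structural coat protein without which caveolae do not form in most cells, lies at chr7:116524785-116561184 on the plus strand. It had 0.278, 0.268 and 0.250 FPKM in libraries labelled SK-N-SH knockdown, from 55 reads in all 3, against 131, 96.0 and 101 FPKM in SK-N-SH controls. In the second line it had 66.5, 58.0 and 59.4 FPKM in knockdown libraries, against 0.358, 0.230 and 0.310 FPKM in controls, from 62 reads in all 3. The low libraries held CAV1 close to 0 and the high ones at 58.0 FPKM or more. CAV1 was 412-fold lower in SK-N-SH (log2 fold -6.43, SE 0.10, limma adjusted p 2.16e-13) and 205-fold higher in the second line (log2 fold 5.58, SE 0.10, limma adjusted p 6.51e-13).

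CAV2, a caveolin that needs CAV1 to reach the plasma membrane, is the neighbouring gene at chr7:116287380-116508541, on the same strand and 16244 bases away. It had 0.00820, 0 and 0.0184 FPKM in libraries labelled SK-N-SH knockdown, which is 3 reads in all, against 15.997, 14.9 and 14.1 FPKM in SK-N-SH controls. Second-line knockdown libraries had 10.99, 13.4 and 12.1 FPKM, and the second-line controls had 0 reads. CAV2 was thus nearly unread in both groups where CAV1 was near 0. From summed reads, CAV2 was 1756-fold lower in SK-N-SH, with a 95% counting interval of 600.5 to 8517 that covers counting error only. Without the third library labelled SK-N-SH knockdown, which holds 2 of the 3 reads, the ratio of means was 3659-fold, against 1692-fold with it. Against the limit of 3 reads over the second-line control group, a level of 0.00854 FPKM, CAV2 was at least 1423-fold higher in second-line knockdown libraries.

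CAVIN1, the coat protein that gathers caveolins into caveolae, lies at chr17:42402452-42423517 on the minus strand. It had 3.37, 3.47 and 3.78 FPKM in libraries labelled SK-N-SH knockdown, against 174, 165 and 133 FPKM in SK-N-SH controls. Second-line knockdown libraries had 229, 283 and 263 FPKM, against 3.01, 3.30 and 2.52 FPKM in second-line controls. CAVIN1 was 44.5-fold lower in SK-N-SH (limma adjusted p 3.04e-12) and 87.7-fold higher in the second line (limma adjusted p 7.17e-13). Unlike CAV1 and CAV2 it was read well above 0 in the low groups.

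EHD2, an ATPase that sits at the neck of caveolae and holds them at the membrane, lies at chr19:47713343-47743134 on the plus strand. It had 3.65, 3.81 and 3.62 FPKM in libraries labelled SK-N-SH knockdown, against 70.8, 66.8 and 61.4 FPKM in SK-N-SH controls. In the second line it had 67.7, 81.9 and 66.9 FPKM in knockdown libraries, against 3.12, 2.94 and 3.42 FPKM in controls. The low libraries lay between 2.94 and 3.81 FPKM. It was 17.95-fold lower in SK-N-SH and 22.9-fold higher in the second line (limma adjusted p 2.39e-12 and 1.21e-12).

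**Figure D2:**
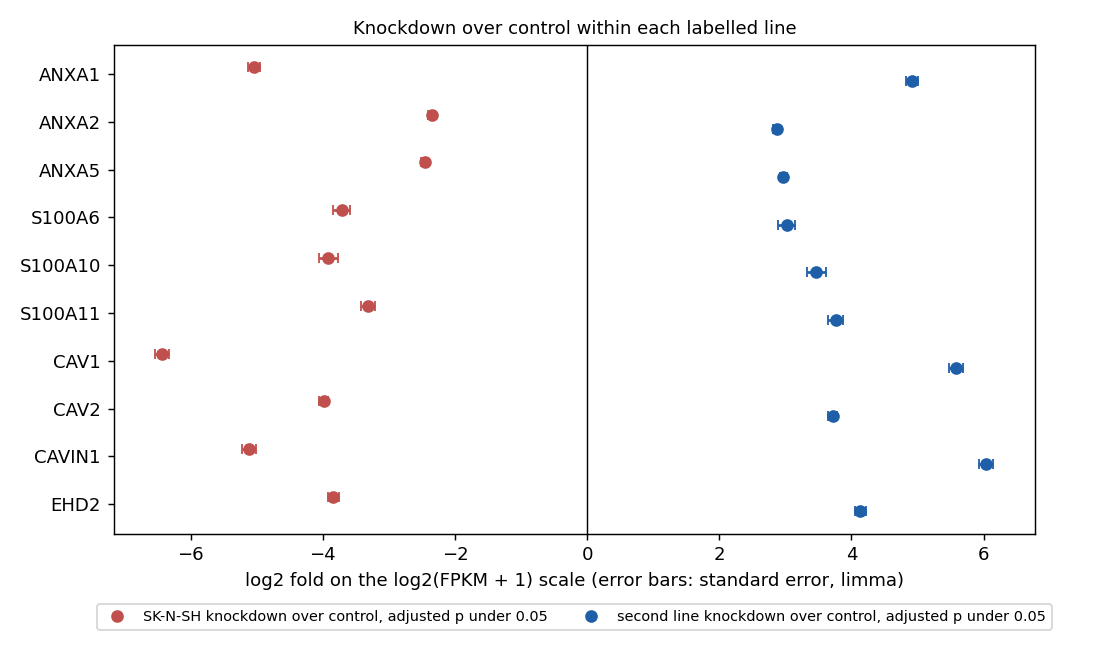
Log2 fold of knockdown over control within each labelled line, on the log2(FPKM + 1) scale with standard errors from limma. All 10 points of the SK-N-SH comparison lie left of 0, from -2.35 (ANXA2) to -6.43 (CAV1), and all 10 of the second line lie right of 0, from 2.87 (ANXA2) to 6.04 (CAVIN1).

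The difference between the knockdown effects of the lines was tested directly, as an interaction in the same model. It was positive for all 10 members and ran from 5.22 (SE 0.08) for ANXA2 to 12.01 (SE 0.14) for CAV1 on the log2 scale, with limma adjusted p-values from 8.60e-15 to 1.07e-11. Of all tested genes, 41.8% had a difference past the threshold in that direction. The order of genes differed somewhat between lines: on the log2(FPKM + 1) scale CAV1 led in SK-N-SH and CAVIN1 in the second line, while ANXA2 and ANXA5 had the smallest folds in both. Summed over the 3 annexins, the level was 83.1 ± 4.17 FPKM in libraries labelled SK-N-SH knockdown and 496 ± 16.4 FPKM in SK-N-SH controls, and 617 ± 13.7 FPKM in second-line knockdown and 75.2 ± 2.40 FPKM in second-line control libraries. The 3 S100 members summed to 113 ± 17.4 FPKM in libraries labelled SK-N-SH knockdown and 1322 ± 70.3 FPKM in SK-N-SH controls, and to 1120 ± 21.8 FPKM in second-line knockdown and 103 ± 14.5 FPKM in second-line control libraries. The 4 caveola members summed to 7.50 ± 0.187 FPKM in libraries labelled SK-N-SH knockdown and 348 ± 41.1 FPKM in SK-N-SH controls, and to 404 ± 31.4 FPKM in second-line knockdown and 6.40 ± 0.134 FPKM in second-line control libraries.

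The comparison of the control groups, which share libraries with the comparisons above, again set a low group against a high one. Each labelled line held both a high and a low group, so this is no constant difference between the lines. All 10 members were lower in second-line controls than in SK-N-SH controls, where 79.6% of tested genes differed and 38.9% were lower. The folds ran from 5.33 (ANXA2) to 365 (CAV1), and CAV2, with 0 reads in the second-line controls, was at least 1757-fold lower there.

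Groups with like levels were compared across the labels. SK-N-SH knockdown-labelled libraries differed from second-line controls in 5.39% of tested genes, and 2.26% were higher. Those 854 genes called became 474 to 991 when 1 library was left out. Of the members, 2 of 10 were past the threshold, both higher: ANXA5 by 1.24-fold (limma adjusted p 0.0105) and S100A11 by 1.36-fold (limma adjusted p 0.0458). ANXA5 averaged 32.5 ± 2.02 FPKM in libraries labelled SK-N-SH knockdown and 26.2 ± 1.38 FPKM in second-line controls (SD, n = 3 each). S100A11 averaged 62.1 ± 8.70 FPKM in libraries labelled SK-N-SH knockdown and 45.6 ± 7.23 FPKM in second-line controls. Its call was lost under 13 alternative settings, among them leaving out any 1 of 10 libraries, with limma adjusted p-values from 0.0530 to 0.163. CAVIN1 and EHD2 were also higher in all 3 libraries than in any second-line control, without passing the test (limma adjusted p 0.365 and 0.269), in a background where 12.9% of genes were higher without overlap. For the other 6 members the libraries overlapped, and their log2 differences ran from -0.21 (SE 0.13) for S100A6 to 0.16 (SE 0.09) for ANXA1.

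The second pair of groups with like levels split the members. Second-line knockdown libraries differed from SK-N-SH controls in 44.1% of tested genes, 26.9% higher and 17.2% lower, and of the 10 members 3 were higher, 5 were lower and 2 did not pass. ANXA2 averaged 362 ± 14.01 FPKM in second-line knockdown and 259 ± 12.1 FPKM in SK-N-SH control libraries, 1.40-fold higher (limma adjusted p 5.15e-05). CAVIN1 averaged 258 ± 27.5 FPKM in second-line knockdown and 158 ± 21.3 FPKM in SK-N-SH control libraries, 1.64-fold higher (limma adjusted p 4.16e-04), and ANXA5 was 1.15-fold higher (limma adjusted p 0.0121). CAV1 averaged 61.3 ± 4.56 FPKM in second-line knockdown and 109 ± 19.0 FPKM in SK-N-SH control libraries, 1.78-fold lower (limma adjusted p 1.05e-04). CAV2 was 1.23-fold lower (limma adjusted p 0.00609), S100A10 1.48-fold lower (limma adjusted p 0.00783), S100A6 1.41-fold lower (limma adjusted p 0.00938) and ANXA1 1.23-fold lower (limma adjusted p 0.0201). With a pseudocount of 0.1 in place of 1, the calls of CAV2 (log2 difference -0.30, limma adjusted p 0.0507) and ANXA1 (log2 difference -0.29, limma adjusted p 0.151) were lost. The ANXA1 call was also lost without SK-N-SH control library 1 (limma adjusted p 0.0775) and without second-line knockdown library 1 or 2 (limma adjusted p 0.0541 and 0.0642). The 2 members that did not pass were S100A11 (log2 difference 0.01, SE 0.11) and EHD2 (0.12, SE 0.08). CAVIN1 and CAV1, parts of the same coat, thus differed in opposite directions, as did ANXA2 and S100A10, parts of the same tetramer. Of all genes called here, 60.9% were higher, and 39.6% after rescaling every library to the same sum; after that rescaling ANXA5 did not pass (log2 difference 0.06, limma adjusted p 0.294).

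**Figure D3:**
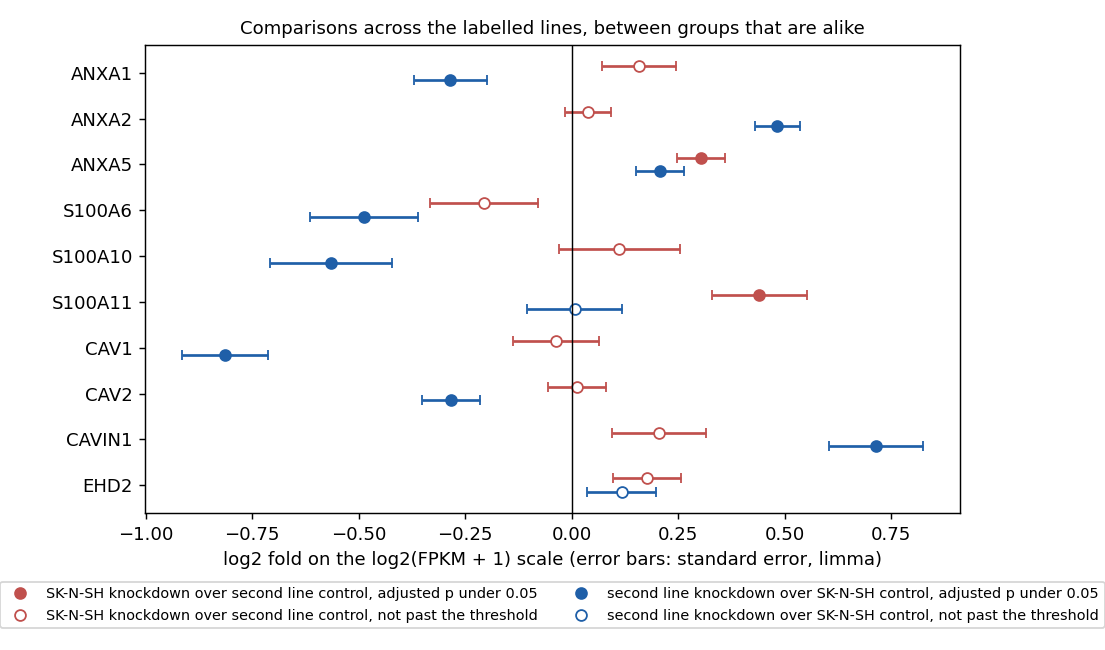
Log2 fold between groups of different labelled lines with like levels, on the log2(FPKM + 1) scale with standard errors from limma; filled points passed an adjusted p of 0.05. Red points are the SK-N-SH knockdown label over second-line control, where 2 of 10 passed, and blue points are second-line knockdown over SK-N-SH control, where 3 were higher and 5 lower.

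Ratios of partners within each library do not depend on the scaling between libraries, and are given as a description without a test. Their size does depend on the gene models. The models of ANXA2 (8824 bases) and ANXA1 (4561 bases) are longer than their principal transcripts (1435 to 1676 and 1509 to 2209 bases), which raises ratios over them. The ratios thus compare groups and do not give the true balance of partners. S100A10 over ANXA2 was 0.0922 ± 0.0111 in libraries labelled SK-N-SH knockdown and 0.324 ± 0.0334 in SK-N-SH controls, and 0.158 ± 0.0330 in second-line knockdown and 0.0863 ± 0.0117 in second-line control libraries. The 2 high groups did not overlap in this ratio, with the highest second-line knockdown library at 0.189 and the lowest SK-N-SH control at 0.298. S100A11 over ANXA1 was 97.8 ± 36.7 in libraries labelled SK-N-SH knockdown and 11.6 ± 1.32 in SK-N-SH controls, and 14.2 ± 0.538 in second-line knockdown and 92.5 ± 10.1 in second-line control libraries. Where both genes were low, ANXA1 was the lower of the pair by a wider margin.

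Within caveolae, CAVIN1 over CAV1 was 13.4 ± 1.56 in libraries labelled SK-N-SH knockdown and 1.46 ± 0.229 in SK-N-SH controls, and 4.25 ± 0.738 in second-line knockdown and 10.3 ± 3.54 in second-line control libraries. EHD2 over CAV1 was 13.95 ± 0.739 in libraries labelled SK-N-SH knockdown and 0.615 ± 0.0778 in SK-N-SH controls, and 1.19 ± 0.203 in second-line knockdown and 10.8 ± 2.06 in second-line control libraries. Residual caveola transcripts in the low groups were thus mostly CAVIN1 and EHD2, with few from CAV1. CAV2 over CAV1 was 0.200 ± 0.0330 in second-line knockdown and 0.139 ± 0.0165 in SK-N-SH control libraries, and rests on at most 3 CAV2 reads in each low group. S100A6 over S100A10 stayed within a narrower range: 10.01 ± 0.392 in libraries labelled SK-N-SH knockdown and 7.45 ± 1.60 in SK-N-SH controls, and 7.88 ± 1.52 in second-line knockdown and 12.75 ± 0.773 in second-line control libraries.

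**Figure D4:**
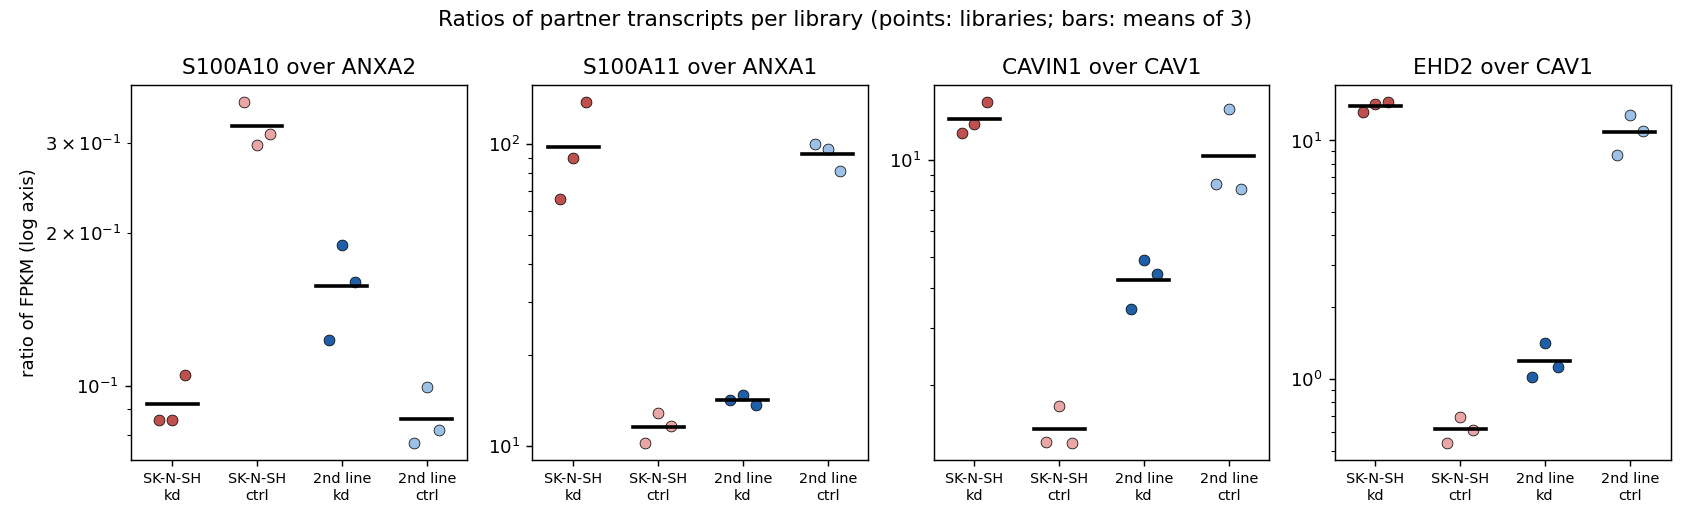
Ratio of FPKM of partner genes in each library, on log axes; points are libraries and bars the means of 3. S100A10 over ANXA2 averages 0.158 in second-line knockdown and 0.324 in SK-N-SH control libraries, and CAVIN1 and EHD2 over CAV1 are highest where CAV1 is near 0.

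Of 17 other S100 genes 6 reached the level needed for the test, a mean of at least 0.5 FPKM over all 12 libraries. A gene can reach that level through its high groups alone. S100A3, for one, averaged 0.468 and 0.164 FPKM in its low groups and 8.83 and 11.6 FPKM in its high ones. The shared direction of these 6 with the S100 members is thus a description only. The S100A genes of chromosome 1 lie between positions 151982915 and 153632039 (GRCh38); there are 16, of which 9 were tested, and S100A7, S100A7A, S100A8, S100A9 and S100A12 had no reads in any library. The 6 (S100A1, S100A2, S100A3, S100A4, S100A13 and S100A16) were lower in libraries labelled SK-N-SH knockdown and higher in second-line knockdown libraries than in their controls. Of all tested genes, 39.0% were lower in SK-N-SH and 39.9% were higher in the second line. These shares are also the background for the related lists below, and the limit on shared direction holds for the related and marker lists too. S100A16, a widely expressed S100 protein, changed most, with 2.11 ± 0.361 FPKM in libraries labelled SK-N-SH knockdown, against 200.1 ± 7.63 FPKM in SK-N-SH controls, and 208 ± 5.18 FPKM in second-line knockdown libraries, against 1.98 ± 0.122 FPKM in second-line controls. S100A4, an S100 protein tied to cell motility and metastasis, had 7.94 ± 0.954 FPKM in libraries labelled SK-N-SH knockdown, against 92.0 ± 17.6 FPKM in SK-N-SH controls, and 44.0 ± 12.3 FPKM in second-line knockdown libraries, against 6.90 ± 0.467 FPKM in second-line controls. Between the high groups, S100A4 was 2.09-fold lower in second-line knockdown than in SK-N-SH control libraries (limma adjusted p 0.00125) and S100A1 was 1.60-fold lower (limma adjusted p 0.0135); the other 4 did not pass. S100A2 was 21.1-fold lower in SK-N-SH and 18.7-fold higher in the second line. S100A3 lies within the S100A4 gene on the same strand, so reads of the pair can be confused; it was 18.9-fold lower in SK-N-SH and 70.9-fold higher in the second line, from 22 reads in libraries labelled SK-N-SH knockdown and 8 in second-line controls. S100A1 and S100A13 overlap on opposite strands and are uncertain for the same reason. S100B, a glial S100 protein too low to be tested, had the opposite pattern of levels, with 0.806 FPKM (59 reads) in libraries labelled SK-N-SH knockdown, against 0.0368 FPKM (3 reads) in SK-N-SH controls, and 0.0128 FPKM (1 read) in second-line knockdown libraries, against 0.545 FPKM (40 reads) in second-line controls.

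**Figure D5:**
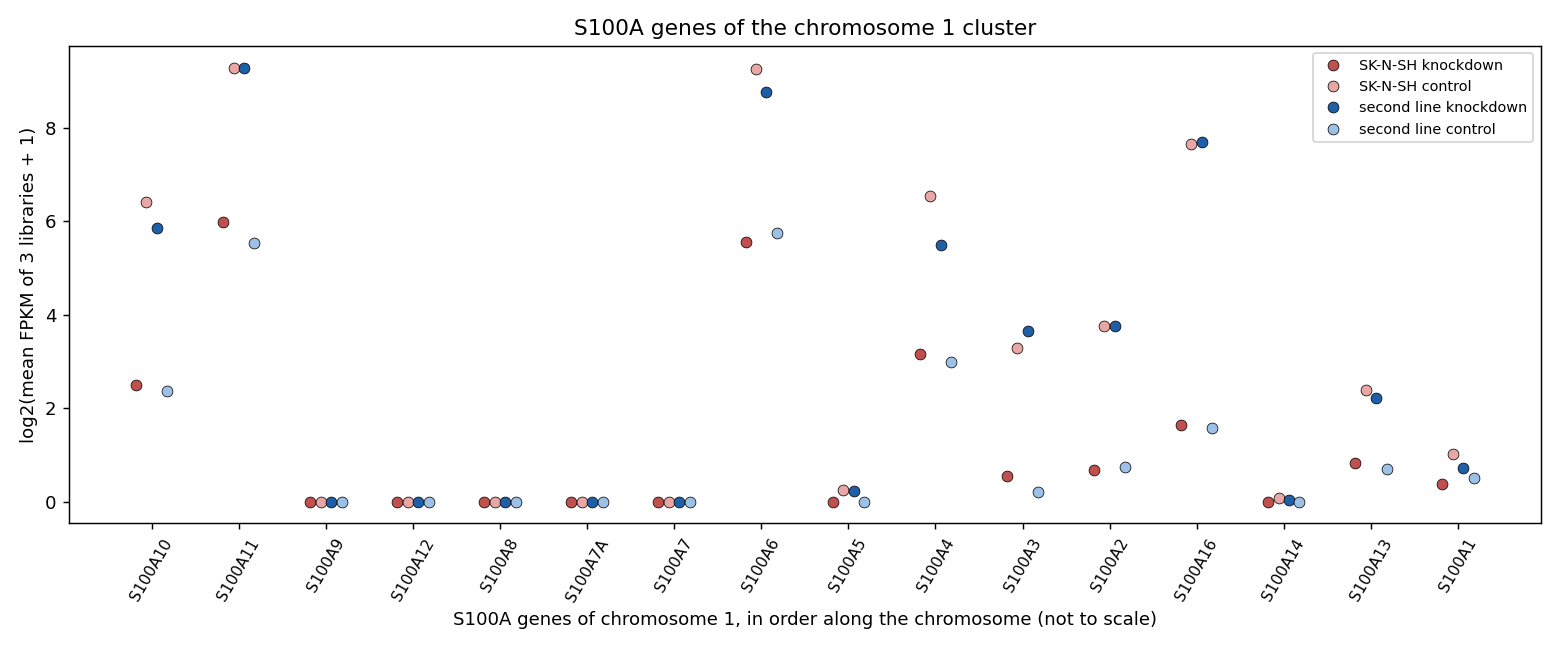
Mean level of the 16 S100A genes of chromosome 1 in their order along the chromosome, as log2 of the mean FPKM of 3 libraries plus 1. The 9 tested genes are higher in SK-N-SH control and second-line knockdown libraries, S100A10, S100A11 and S100A6 among them, while S100A7, S100A7A, S100A8, S100A9 and S100A12 are at 0 in all groups.

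The other annexins followed less uniformly. Of 10 listed, 6 were tested; in SK-N-SH 5 were lower and 1 higher, and in the second line 4 were higher, 1 lower and 1 did not pass. ANXA4, an annexin of epithelial membranes, had 1.20 ± 0.0755 FPKM in libraries labelled SK-N-SH knockdown, against 7.80 ± 0.0135 FPKM in SK-N-SH controls, and 8.18 ± 0.565 FPKM in second-line knockdown libraries, against 0.865 ± 0.169 FPKM in second-line controls. ANXA11 was 2.19-fold lower in SK-N-SH and 2.05-fold higher in the second line, and ANXA7 was 1.54-fold lower in SK-N-SH and 2.11-fold higher in the second line. ANXA3 rested on 2 reads in libraries labelled SK-N-SH knockdown, against 2.46 ± 0.270 FPKM in SK-N-SH controls; second-line knockdown libraries had 1.97 ± 0.587 FPKM, against 4 reads in second-line controls. The exceptions in direction were ANXA6, higher in SK-N-SH, and ANXA9, lower in the second line. As ANXA3 reached the tested level through its high groups alone, the counts of annexins are a description only.

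Of 10 other caveola and EHD genes, 8 were tested, with 6 lower and 2 higher in SK-N-SH and 6 higher and 2 lower in the second line. CAVIN3, a cavin that modulates caveolae, had 0 FPKM in libraries labelled SK-N-SH knockdown, against 4.05 ± 0.0656 FPKM in SK-N-SH controls, and 5.23 ± 0.559 FPKM in second-line knockdown libraries, against 0 FPKM in second-line controls. Against the limit of 3 reads over a group, CAVIN3 was at least 115-fold lower in SK-N-SH and at least 148-fold higher in the second line. CAVIN4, the muscle cavin, ran the other way, with 4.51 ± 0.490 FPKM in libraries labelled SK-N-SH knockdown, against 0.367 ± 0.0563 FPKM in SK-N-SH controls, and 0.465 ± 0.0715 FPKM in second-line knockdown libraries, against 4.51 ± 0.137 FPKM in second-line controls. EHD3, a relative of EHD2 in endosomal recycling, was 5.56-fold lower in SK-N-SH and 5.70-fold higher in the second line, and EHD4 was 5.31-fold lower in SK-N-SH and 8.11-fold higher in the second line. PACSIN2, a membrane-bending protein, was the other gene that was higher in SK-N-SH and lower in the second line. These counts too are a description only, since genes such as CAVIN3 were tested through their high groups alone.

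Partners of these proteins, and the plasmin system that ANXA2 and S100A10 serve, mostly had the direction of the members. SERPINB2, for one, reached the tested level through its high groups alone, so this is a description only. Of 12 genes, 8 were tested; 6 were lower, 1 higher and 1 did not pass in SK-N-SH, and 7 were higher and 1 lower in the second line. PLAT, the tissue plasminogen activator, had 2.89 ± 0.144 FPKM in libraries labelled SK-N-SH knockdown, against 228 ± 33.1 FPKM in SK-N-SH controls, and 212 ± 19.6 FPKM in second-line knockdown libraries, against 3.64 ± 0.180 FPKM in second-line controls. PLAU, the urokinase activator, was 160.0-fold lower in SK-N-SH and 129-fold higher in the second line. SERPINB2, which inhibits urokinase, had 0.227 ± 0.130 FPKM in libraries labelled SK-N-SH knockdown, against 11.6 ± 0.447 FPKM in SK-N-SH controls, and 11.7 ± 1.03 FPKM in second-line knockdown libraries, against 0.0719 ± 0.0254 FPKM in second-line controls. AHNAK2, a giant scaffold protein related to AHNAK, had 0.729 ± 0.0590 FPKM in libraries labelled SK-N-SH knockdown, against 24.7 ± 1.90 FPKM in SK-N-SH controls, and 16.6 ± 0.729 FPKM in second-line knockdown libraries, against 0.766 ± 0.0558 FPKM in second-line controls. The low groups of SERPINB2 rested on 32 reads under the SK-N-SH knockdown label and 10 reads in second-line controls. PLG, the plasminogen gene itself, had 0 reads in all 12 libraries.

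Of 13 membrane repair genes 11 were tested, with 9 lower, 1 higher and 1 not past the threshold in SK-N-SH, and 9 higher and 2 not past it in the second line. MYOF, a ferlin that acts in membrane fusion, had 0.384 ± 0.0827 FPKM in libraries labelled SK-N-SH knockdown, against 48.0 ± 3.25 FPKM in SK-N-SH controls, and 69.3 ± 4.69 FPKM in second-line knockdown libraries, against 0.398 ± 0.0816 FPKM in second-line controls. SMPD1, the acid sphingomyelinase, was 8.999-fold lower in SK-N-SH and 15.3-fold higher in the second line. CAPN2, a calcium-activated protease, was 7.34-fold lower in SK-N-SH and 7.66-fold higher in the second line. VPS4A, an ATPase of membrane scission, was the single gene of the list that was higher in SK-N-SH. MYOF reached the tested level through its high groups alone, so the counts of this list are a description only.

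Genes next to the members differed in both directions. There were 16 neighbours that are no members, 10 of them tested. In SK-N-SH 5 were higher, 4 lower and 1 not past the threshold, where 40.7% of all tested genes were higher and 39.0% lower. In the second line 3 were higher, 6 lower and 1 not past it, where 39.9% of tested genes were higher and 40.2% lower. With 10 genes, these counts show nothing particular to the neighbours. MET, the receptor gene on the far side of CAV1, followed it, with 0.0135 FPKM in libraries labelled SK-N-SH knockdown, against 29.6 FPKM in SK-N-SH controls, and 35.4 FPKM in second-line knockdown libraries, against 0.00277 FPKM in second-line controls. TES, on the far side of CAV2 and 28597 bases away, went the other way, with 3.84 FPKM in libraries labelled SK-N-SH knockdown, against 0.373 FPKM in SK-N-SH controls, and 0.256 FPKM in second-line knockdown libraries, against 4.84 FPKM in second-line controls. TMEM155, next to ANXA5, followed it, with 0 FPKM in libraries labelled SK-N-SH knockdown, against 24.6 FPKM in SK-N-SH controls, and 23.1 FPKM in second-line knockdown libraries, against 0.0131 FPKM in second-line controls. NOP53, which lies 2388 bases from EHD2, did not pass in SK-N-SH (limma adjusted p 0.642).

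Many cell state markers and some cell type markers differed between these groups, and their part in the results was not tested. The 8 noradrenergic markers summed to 869 to 925 FPKM in libraries labelled SK-N-SH knockdown, against 81.3 to 93.9 FPKM in SK-N-SH controls, and 66.3 to 82.9 FPKM in second-line knockdown libraries, against 974 to 1009 FPKM in second-line controls. All 8 were higher in SK-N-SH and lower in the second line, opposite to the members. HAND2 and PHOX2A were the most abundant, and TH, which makes catecholamines, had 0 reads in both groups with high members. Of 8 mesenchymal markers 7 were tested, with 4 lower, 1 higher and 2 not past the threshold in SK-N-SH and 6 higher and 1 lower in the second line; they summed to 136 to 141 FPKM in libraries labelled SK-N-SH knockdown, against 268 to 279 FPKM in SK-N-SH controls, and 290 to 319 FPKM in second-line knockdown libraries, against 141 to 154 FPKM in second-line controls. PRRX1, a mesenchymal regulator, had 0.0693 FPKM in libraries labelled SK-N-SH knockdown, against 137 FPKM in SK-N-SH controls, and 152 FPKM in second-line knockdown libraries, against 0.0501 FPKM in second-line controls. TWIST1 ran the other way, with 126 FPKM in libraries labelled SK-N-SH knockdown, against 73.0 FPKM in SK-N-SH controls, and 46.9 FPKM in second-line knockdown libraries, against 134 FPKM in second-line controls.

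Of 7 fibroblast markers 6 were tested; all 6 were lower in SK-N-SH, and in the second line 3 were higher, 1 lower and 2 did not pass. Their sum was 81.6 to 87.0 FPKM in libraries labelled SK-N-SH knockdown, against 930.2 to 1158 FPKM in SK-N-SH controls, and 545 to 641 FPKM in second-line knockdown libraries, against 67.5 to 71.7 FPKM in second-line controls. LUM and COL1A1 were the most abundant. COL1A1 had 8.54 FPKM in libraries labelled SK-N-SH knockdown, against 810 FPKM in SK-N-SH controls. In the second line COL1A1 had 508 FPKM in knockdown libraries, against 8.97 FPKM in controls. Most of the sum in SK-N-SH control and second-line knockdown libraries was thus COL1A1. PDGFRB had the opposite direction in the second line, with 9.15 FPKM in knockdown and 14.5 FPKM in control libraries. DCN also had a lower mean there, with 0.118 FPKM in knockdown and 0.412 FPKM in control libraries, though only 1 fibroblast marker passed the threshold as lower. Endothelial markers summed to at most 0.867 FPKM in any library, led by TEK and CLDN5, with CDH5 and KDR at 0 in second-line knockdown. Schwann cell markers summed to at most 1.05 FPKM, led by S100B and ERBB3, with CDH19 and FOXD3 at 0 in every library. Blood markers summed to at most 1.54 FPKM, led by PTPRC and CD14, with CD3E at 0 in every library, and muscle and adipocyte markers to at most 0.517 FPKM, led by DES and PLIN1, with FABP4 and ADIPOQ at 0 in every library. Epithelial markers summed to 1.36 to 1.67 FPKM in libraries labelled SK-N-SH knockdown, against 21.7 to 26.4 FPKM in SK-N-SH controls, and 25.0 to 31.0 FPKM in second-line knockdown libraries, against 1.36 to 2.08 FPKM in second-line controls. In SK-N-SH control and second-line knockdown libraries these were mainly KRT18 and KRT8, and KRT5 was at 0 in every library. Of 7 epithelial markers 4 were tested, with 3 lower and 1 higher in SK-N-SH, and 3 higher and 1 lower in the second line. EPCAM ran the other way, at 0.704 FPKM under the SK-N-SH knockdown label against 0.296 FPKM in SK-N-SH controls. In the second line EPCAM was at 0.337 FPKM in knockdown and 0.814 FPKM in control libraries.

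Genes whose pattern over the 12 libraries was most like that of 3 members were named by root mean square distance between log2(FPKM + 1) values, each gene centred on its own mean; this is a description over libraries that fall in 2 sets of levels. CAV1 was followed most closely by CPA4 (distance 0.142), COL1A1 (0.214) and IFITM2 (0.240), and its nearest fellow member was ANXA1 (0.563). For ANXA2 the nearest were its copy ANXA2P2 (0.0718), GABRA3 (0.0752) and GNAI2 (0.0909), and the nearest member was ANXA5 (0.151). For S100A10 they were JCAD (0.119), WNT5A (0.165) and CNIH3 (0.177), and the nearest member was CAV2 (0.178).

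The promoters of genes that move together were read for short motifs, to see whether the members share them. RefSeq promoter windows of 9 of the 10 members were matched, 12 windows in all, and the 250 bases before each start were searched on both strands; CAVIN1 was not matched. The GC box GGGCGG was found in 8 of 9 members, with ANXA1 the member that lacked it. By windows it was in 11 of the 12 and in 42.6% of all 35116, and CAV1 and CAV2 each gave several of the windows. The member windows with the box had a GC content of 63.2% to 83.2%, against a median of 58.0% over all windows. Whether the box was more common than this GC content alone would give was not tested. The AP-1 motif TGANTCA was found in ANXA2 only, which is 1 of the 12 windows, and in 6.57% of all windows. TATAAA was in ANXA1 and ANXA2, which is 2 of the 12 windows, and in 10.7% of all windows. GGAATG, a TEAD motif, was in no member and in 11.9% of all windows. The stretches that show the contrast are given 5′ to 3′ on the gene's strand and stop before the first annotated exon, from RefSeq on GRCh38.p14: ANXA1 at chr9:73151615-73151756, plus strand, with a GC content of 38.4% in its window against a median of 58.0% over all windows; ANXA2 at chr15:60398044-60398236, minus strand; and S100A11 at chr1:152037036-152037254, minus strand. The ANXA2 and S100A11 stretches are intronic in longer GENCODE transcripts of their genes, and the ANXA1 stretch ends just before its gene. Capitals mark TGANTCA and GGGCGG matches, 3 of them overlapping in ANXA2.
ANXA1: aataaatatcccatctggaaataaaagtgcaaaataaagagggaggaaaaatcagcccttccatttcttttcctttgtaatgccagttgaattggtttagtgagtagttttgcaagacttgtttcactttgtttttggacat
ANXA2: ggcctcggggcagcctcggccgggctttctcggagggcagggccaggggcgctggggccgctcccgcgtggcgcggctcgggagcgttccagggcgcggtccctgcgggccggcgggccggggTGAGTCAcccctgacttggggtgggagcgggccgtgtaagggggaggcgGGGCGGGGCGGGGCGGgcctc
S100A11: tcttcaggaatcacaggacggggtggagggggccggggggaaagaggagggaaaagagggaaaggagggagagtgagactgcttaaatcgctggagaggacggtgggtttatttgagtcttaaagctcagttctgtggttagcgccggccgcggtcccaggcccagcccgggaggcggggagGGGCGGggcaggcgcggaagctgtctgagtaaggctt
A match is a description of these letters and not a binding site. All 3 genes were lower under the SK-N-SH knockdown label and higher in second-line knockdown libraries than in their controls. Any part of the promoter letters in this was not tested.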

How the data were processed

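RNA from 12 libraries, 3 in each of 4 groups taken from the titles, was sequenced. Input was 3 µg of RNA and the kit was NEBNext Ultra, per the labels' protocols. Per the submitters' processing notes, the tools were HISAT2 2.0.5 with featureCounts 1.5.0-p3, and the build listed was mm10. The authors deposited FPKM per gene; all gene starts and ends equal GENCODE 29 on GRCh38, so that build is used. No source used here states whether strand was used in counting. Multiplied by gene length, 100% of FPKM values were whole multiples of 1 step per library (tolerance 0.05 reads), giving 15425460 to 19249018 reads per library, scaled in proportion to median-of-ratios size factors. Counting intervals and floors (3 reads) cover counting error only.

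The tested values were log2(FPKM + 1) of genes with a mean of at least 0.5 FPKM. The test was limma 3.58.1 (R 4.3.3), 1 model of 4 group means with an intensity trend, adjusted by Benjamini-Hochberg (threshold 0.05). Folds are ratios of mean FPKM; log2 folds understate low genes. All members were named, and of each related list the 3 genes past the threshold with the largest log2 fold in each knockdown comparison; of marker lists, the 2 most abundant. Other genes, such as exceptions and neighbours, were named after their values were seen. The members and lists were chosen with earlier results of these data known. Some genes of these lists are not reported here, and counts and sums are over the others. The model was also run on simulated data with a fixed, small spread and smaller folds than those of the members. That run gives no measure of its accuracy on these libraries. Same-numbered libraries did not deviate together (r from -0.0751 to 0.102 over 18 pairs), so the numbers are not used as pairs. Alternatives were another pseudocount, other filters, 2 rescalings, voom on whole reads, fewer groups or genes, a replicate block and leaving out each library.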

Additional observations from a re-analysis of the deposited data

Results flagged for a closer look

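The contrast of knockdown-labelled over control libraries differed between the labelled lines, by the interaction in the limma model, for each gene given here. The values are log2 differences, second line minus SK-N-SH. TSPYL5 itself was higher under the SK-N-SH knockdown label, and whether labels were exchanged was not tested. These differences are therefore not shown to be effects of TSPYL5 knockdown. The differences were 9.96 for ANXA1, 5.22 for ANXA2 and 5.43 for ANXA5. They were 6.73 for S100A6, 7.38 for S100A10 and 7.08 for S100A11. Caveola genes gave 12.01 for CAV1, 7.70 for CAV2, 11.16 for CAVIN1 and 7.97 for EHD2.

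Among related genes the differences were 4.30 for ANXA4, 3.30 for ANXA3, 2.01 for ANXA11 and 1.63 for ANXA7. They were 12.15 for S100A16, 5.84 for S100A4, 6.09 for S100A2 and 6.19 for S100A3. CAVIN3 gave 4.97, EHD3 4.36 and EHD4 4.04, and CAVIN4 gave -3.92. PLAT gave 11.38, PLAU 10.65, AHNAK2 7.21 and SERPINB2 6.92. MYOF gave 10.80, SMPD1 6.46 and CAPN2 5.61. The targeted gene TSPYL5 gave -1.34 and MYCN gave -19.97.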

How the results depend on the processing

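Of 1250 refits of a member's log2 fold, 1231 kept direction and side of the threshold, 19 lost the call and 0 reversed; the cause was not tested. Between the SK-N-SH knockdown label and second-line controls, 1 member was called in place of 2 with a pseudocount of 0.1, with no filter on low values and with only the groups compared. There, leaving out 1 library gave 1 to 2 members and 474 to 991 genes called, against 854 with all libraries; it gave 510 and 474 without library 1 or 2 labelled SK-N-SH knockdown, and 515, 486 and 527 without second-line control library 1, 2 or 3. In the other 5 comparisons, 7 to 10 members were called without 1 library. Where second-line knockdown was set against SK-N-SH controls, a pseudocount of 0.1 ended the calls of ANXA1 (limma adjusted p 0.151) and CAV2 (limma adjusted p 0.0507). With the replicate block, which rests on numbers that do not pair the libraries, 10 members were called in both knockdown comparisons, and 692 genes between the SK-N-SH knockdown label and second-line controls. Rescaling every library to 1 sum moved the median log2 fold of all genes in the second line to -0.11, small beside the members' folds of 2.87 or more. Few reads of CAV1, CAV2 and ANXA1 in the low groups limit the precision of their folds.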
